A study of Mus musculus with 7 samples.

Results

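Imprinted genes are transcribed mainly from the copy inherited from the mother or from the copy inherited from the father, and many of them regulate growth of the embryo and placenta. The account here covers 10 of them, H19, Meg3, Dlk1, Peg3, Cdkn1c, Mest, Grb10, Plagl1, Peg10 and Nnat, taken by gene symbol from a table of 19144 symbols, with all 10 present and all 10 expressed highly enough to be tested. Igf2 and Igf2r are not among the 10. RNA came from mouse embryos at stage E10.5, from cells of pharyngeal arches 3 to 6 that were sorted for green fluorescent protein (GFP). The 3 Chd7 deletion libraries, numbered 1, 3 and 4, came from embryos with Wnt1-Cre2, floxed Chd7 (loxp/loxp) and the mTmG reporter. The 4 wild-type libraries, numbered 1 to 4, came from embryos with Wnt1-Cre2, Chd7 +/+ and mTmG, so both groups carried the recombinase and the reporter. Wnt1-Cre2 is driven from a Wnt1 promoter that is active in the dorsal neural tube and early neural crest, and recombination of mTmG turns on GFP in those cells and their descendants. The labels give loxp/loxp mothers for all embryos, a cross from which an embryo would inherit at least a single floxed copy, so +/+ is given here for the controls as the labels state it. They do not give the number of embryos behind a library, so a p-value reflects only the spread from library to library, part of which may be technical.

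In an imprinted cluster, a stretch of DNA methylated on only the maternal or only the paternal copy sets which copy of the neighbouring genes is read. In mouse, H19, Meg3, Cdkn1c and, in most tissues, Grb10 are read from the maternal copy, and Dlk1, Peg3, Mest, Plagl1, Peg10 and Nnat from the paternal copy. Several of the paternally read genes are known to favour growth of the embryo, whereas Cdkn1c and Grb10 restrain it. CHD7, the protein that was removed, is a chromatin remodelling enzyme whose human gene is mutated in CHARGE syndrome, with malformations of the heart outflow tract among its features. The values add up both copies of each gene, so they do not show which parental copy was read.

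Promoter windows of 300 bases (250 before and 50 after the transcript start) were found in RefSeq, build GRCm38.p6, for 7 of the 10 genes. H19, Cdkn1c and Peg10 had no entry. The windows of Peg3, Plagl1 and Mest are printed because these are paternally read genes that were lower in every number-matched pair of libraries, and because CpG, written here in capitals (CG), is the base pair step at which imprinting marks are set. Each is written in the direction of its gene.
Peg3 (chr7:6730370-6730669, minus strand): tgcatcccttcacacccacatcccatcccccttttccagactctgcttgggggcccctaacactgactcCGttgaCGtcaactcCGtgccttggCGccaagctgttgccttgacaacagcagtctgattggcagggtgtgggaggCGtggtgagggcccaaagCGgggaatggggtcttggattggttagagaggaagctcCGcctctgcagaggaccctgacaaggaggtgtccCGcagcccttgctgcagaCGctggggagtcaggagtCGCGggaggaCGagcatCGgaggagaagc
Plagl1 (chr10:13090582-13090881, plus strand): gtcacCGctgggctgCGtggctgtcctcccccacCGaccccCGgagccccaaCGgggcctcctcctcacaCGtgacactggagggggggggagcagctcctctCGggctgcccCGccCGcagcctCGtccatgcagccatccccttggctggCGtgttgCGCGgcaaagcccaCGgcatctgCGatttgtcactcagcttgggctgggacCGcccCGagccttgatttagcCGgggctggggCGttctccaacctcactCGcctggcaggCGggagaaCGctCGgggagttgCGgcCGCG
Mest (chr6:30737800-30738099, plus strand): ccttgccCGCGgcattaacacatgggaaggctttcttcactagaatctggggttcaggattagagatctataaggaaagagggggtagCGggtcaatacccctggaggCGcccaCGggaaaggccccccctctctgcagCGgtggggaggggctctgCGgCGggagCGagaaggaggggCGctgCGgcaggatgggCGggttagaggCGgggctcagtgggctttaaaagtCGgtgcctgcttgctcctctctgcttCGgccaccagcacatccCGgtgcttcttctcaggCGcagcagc
The Peg3 window held 13 CpG, the Plagl1 window 26 and the Mest window 17, against a median of 7 over 32851 windows of the same length. These counts stood at the 62.9, 83.8 and 69.4 percentiles, and the 90th percentile was 31. Mest had 3 windows, of which the first with the most CpG is printed, and the others held 17 and 8. The 3 windows hold 5 of its 11 GENCODE transcript starts. The Peg3 window also contains the annotated start of Usp29, which is read the other way and begins 147 bases from Peg3. The letters GGGGCCCC, to which the PLAGL1 protein has been reported to bind, are the same on both strands. They were in 1 of the 11 windows of the 7 genes, that of Peg3, and in 1.08% of all windows. TATAAA, searched on both strands, was in 1 of the 11, the upstream window of Meg3, and in 13.6% of all windows. For Dlk1 the only window, with 9 CpG, lies at an upstream start that holds 2 of its 10 GENCODE transcript starts, so it is not printed.

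The 10 genes differed widely in level. Expression is given in FPKM, read numbers divided by gene length and library total, which permits comparison between genes. H19 was the highest at 288 ± 69.4 FPKM (SD, n = 3) in the Chd7 deletion and 365 ± 84.1 FPKM (SD, n = 4) in wild-type libraries. Mest followed at 285 ± 60.3 FPKM after deletion and 346 ± 68.1 FPKM in the wild type, and Grb10 at 253 ± 7.49 FPKM after deletion and 243 ± 15.3 FPKM in the wild type. Nnat, Peg3, Peg10 and Cdkn1c lay between 73.5 and 135 FPKM in the wild-type means. Ranked by the mean over all 7 libraries, these 7 genes stood in the top 3% of the 11039 tested genes. They ran from the 97.2 percentile for Cdkn1c to the 99.6 percentile for H19. In the same ranking Dlk1 and Plagl1, at 16.9 and 16.6 FPKM in the wild type, stood near the 75th to 76th percentile. Meg3, at 9.55 FPKM in the wild type, stood at the 61.5 percentile. The wild-type ranges of neighbours in this order overlapped for H19 and Mest, for Nnat, Peg3 and Peg10, and for Dlk1 and Plagl1.

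**Figure D1:**
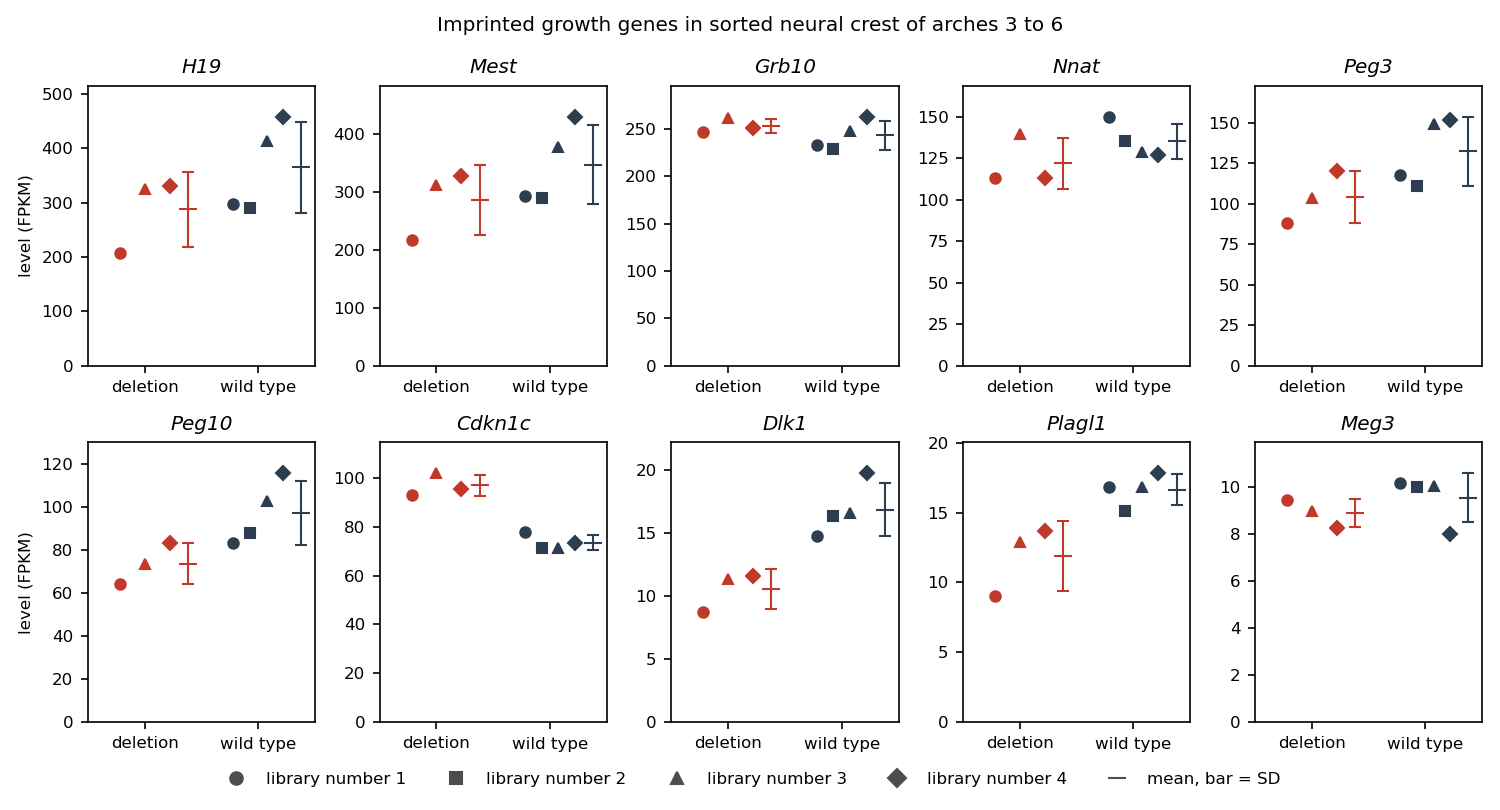
Level in FPKM (vertical axes, from 0) of the 10 imprinted genes in each library, with the 3 Chd7 deletion libraries on the left and the 4 wild-type libraries on the right of each panel. Marker shape gives the library number and bars the mean and SD. The groups are apart for Dlk1, Plagl1 and Cdkn1c, and libraries numbered 3 and 4 are above those numbered 1 and 2 of their genotype for H19, Mest, Peg3, Peg10, Dlk1, Grb10 and Plagl1, by the least for Plagl1 in the wild type.

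Chd7 itself was 7.71 ± 0.208 FPKM (SD, n = 3) in the deletion libraries and 14.2 ± 0.337 FPKM (SD, n = 4) in the wild type, 54.3% of the wild-type level (log2 fold change -0.80, limma adjusted p = 0.00266). The floxed part is not named in the labels, and transcript that lacks only that part still counts. The sum of FPKM ranged from 170809 to 206059 in the deletion libraries and from 186578 to 209560 in the wild type. Rn45s, a ribosomal RNA precursor, took 4.84% to 8.68% of the sum after deletion and 4.11% to 7.15% in the wild type. Its highest share and the lowest sum were both in Chd7 deletion 1. Sequencing depth relative to wild type 1, estimated from low values, was 0.865 to 1.12 in the deletion libraries and 0.912 to 1.29 in the wild type. The first principal component, with 60.5% of the variance, parted numbers 1 and 2 from numbers 3 and 4, whatever the genotype. Only Chd7 deletion 1 represents the first set among the deletion libraries, so the sets are unequally shared between the genotypes. Same-numbered libraries deviated together, but so did differently numbered libraries of the same set. The deviations therefore show the sets more clearly than a pairing of single libraries. Values from a fit with the replicate number as a block are given where they change a call. That fit compares each deletion library with the wild-type library of its number.

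Which of the 10 genes passed after deletion of Chd7 depended on the fit. Dlk1, Peg3 and Peg10 fell in the comparison of number-matched libraries. Cdkn1c had a higher mean level without passing there or in the fit to all 7 libraries. Peg3 and Peg10 passed in no other setting except with the library set as a covariate, whereas Cdkn1c passed in several settings given below. None of the 10 passed an adjusted p of 0.05 in the limma fit to all 7 libraries, in which 0.888% of the 11039 genes did. At an unadjusted p below 0.05 the count was 4, with Cdkn1c higher and Dlk1, Plagl1 and Peg10 lower, where 7.38% of all genes reached that level. With the replicate number as a block, 3 of the 10 passed and all 3 fell (Dlk1, Peg3 and Peg10), against 3.32% of all genes called in either direction and 2.27% called lower. The median log2 fold change of the 10 was -0.31 without the block and -0.39 with it, beside medians over all genes of -0.04 and -0.07. Without Chd7 deletion 1, the median of the 10 was -0.13 and that of all genes 0.016, and with quantile normalization they were -0.18 and 0.0028. In the 3 number-matched pairs of libraries, 6 of the 10 were lower in every pair (H19, Dlk1, Peg3, Mest, Plagl1 and Peg10), a pattern found for 36.7% of all genes, and Cdkn1c was higher in every pair, a pattern found for 11.5%. The groups did not overlap for 3 of the 10, Dlk1, Plagl1 and Cdkn1c, and for 9.17% of all genes. In bulk RNA such as this, fewer cells of a type and less RNA per cell cannot be told apart.

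**Figure D2:**
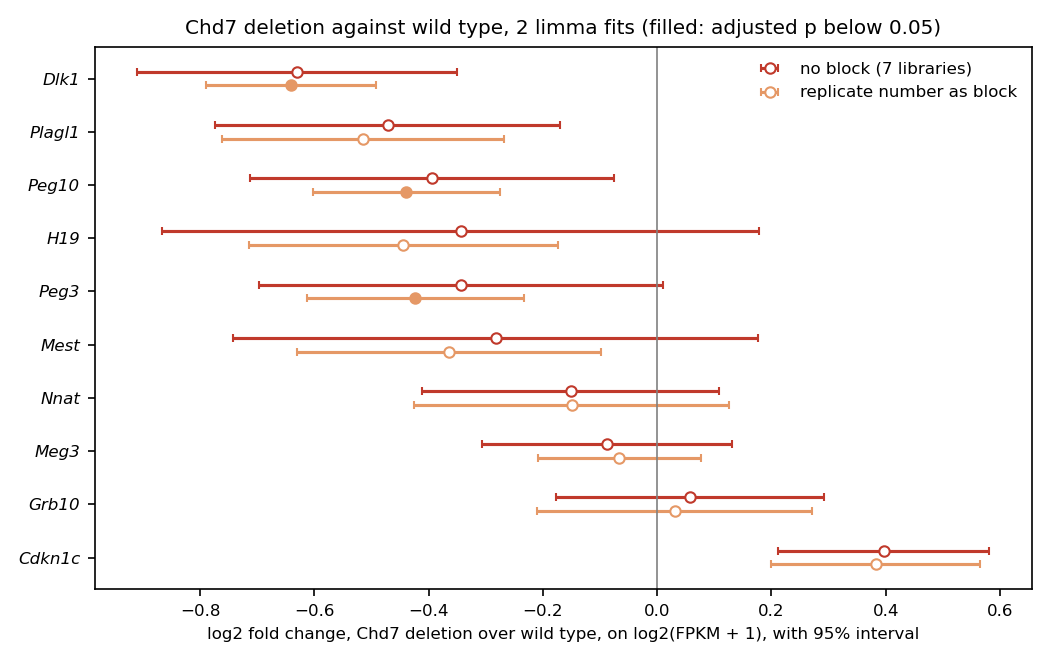
Log2 fold change of each gene, Chd7 deletion over wild type, on log2(FPKM + 1) (horizontal axis) with its 95% interval, from limma without a block (upper point) and with the replicate number as a block (lower point). Filled points have an adjusted p below 0.05 over all 11039 genes. These are Dlk1, Peg10 and Peg3, each under the block, and the interval of Cdkn1c lies above 0 in both fits although neither adjusted p passed.

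Plagl1 and Peg3 encode zinc finger proteins. PLAGL1 is a transcription factor that, in mouse, has been linked to a network of imprinted genes. Plagl1 (chr10:13060504-13131694) had 9.04, 12.9 and 13.7 FPKM in Chd7 deletion 1, 3 and 4, against 16.8, 15.1, 16.8 and 17.8 FPKM in wild type 1 to 4. All deletion libraries were below all wild-type libraries, with Chd7 deletion 1 the lowest. The mean was 1.40-fold higher in the wild type, with a log2 fold change of -0.47 (95% interval -0.77 to -0.17). It did not pass in limma (adjusted p = 0.243) or under the replicate block (adjusted p = 0.0556). Without Chd7 deletion 1 the log2 fold change was -0.30.

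Peg3 (chr7:6703892-6730431) had 88.0, 104 and 120.3 FPKM in Chd7 deletion 1, 3 and 4, against 118, 111, 149 and 152 FPKM in wild type 1 to 4. The groups overlapped through Chd7 deletion 4, which lay above wild type 1 and 2, while each deletion library was below the wild-type library of its own number. The log2 fold change was -0.34 (limma adjusted p = 0.686), and under the replicate block it was -0.42 with a standard error of 0.078 and Peg3 fell (adjusted p = 0.0475). Usp29, its divergent neighbour, was 2.78 ± 0.286 FPKM (SD, n = 3) after deletion and 3.48 ± 0.588 FPKM (SD, n = 4) in wild-type libraries, and passed neither in limma (adjusted p = 0.737) nor under the block (adjusted p = 0.0789).

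Dlk1 showed the largest difference of the 10 in both fits. It encodes a membrane protein with EGF-like repeats, related to Notch ligands, and is known as a growth and differentiation regulator of embryonic mesenchyme. Dlk1 (chr12:109452823-109463336) had 8.73, 11.3 and 11.6 FPKM in Chd7 deletion 1, 3 and 4, against 14.7, 16.4, 16.6 and 19.7 FPKM in wild type 1 to 4. The groups were apart, and the highest deletion value lay below the lowest wild-type value. Mean FPKM was 1.60-fold higher in the wild type, with a log2 fold change of -0.63 and a standard error of 0.12. The adjusted p in limma was 0.0723, in a range of 0.00173 to 0.232 over 17 alternative settings, and under the replicate block Dlk1 fell (log2 fold change -0.64, adjusted p = 0.0077). Replicates 3 and 4 gave a difference of -0.61, and replicates 1 and 2 gave -0.76, where only Chd7 deletion 1 represents the deletion.

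Meg3 is a long non-coding RNA read from the maternal copy of the same cluster. Meg3 (chr12:109541001-109571726) had 9.46, 8.97 and 8.26 FPKM in Chd7 deletion 1, 3 and 4, against 10.2, 9.996, 10.03 and 7.99 FPKM in wild type 1 to 4. Wild type 4 was the lowest of the 7, so the groups overlapped. Its log2 fold change was -0.09 (95% interval -0.31 to 0.13), with a limma adjusted p of 0.952 and, under the block, 0.498. Rian, a further maternally read RNA of this cluster, was 40.3 ± 3.67 FPKM (SD, n = 3) after deletion and 45.1 ± 2.73 FPKM (SD, n = 4) in the wild type (adjusted p = 0.843, or 0.147 under the block). Rtl1, a retrotransposon-derived gene read from the paternal copy, was 2.88 ± 0.361 FPKM after deletion and 3.37 ± 0.31 FPKM in the wild type (adjusted p = 0.806, or 0.337 under the block).

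Peg10 is derived from a retrotransposon and is required for the mouse placenta. Peg10 (chr6:4747306-4760517) had 64.2, 73.6 and 83.2 FPKM in Chd7 deletion 1, 3 and 4, against 83.1, 87.8, 103 and 116 FPKM in wild type 1 to 4. The groups met at 1 point, where Chd7 deletion 4 was at the level of wild type 1. The log2 fold change was -0.39 (limma adjusted p = 0.467), and under the block it was -0.44 with a standard error of 0.068, and Peg10 fell (adjusted p = 0.0278).

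Mest encodes a protein with an alpha/beta hydrolase fold, and its loss slows growth in mouse. Mest (chr6:30723547-30748465) had 216, 312 and 327 FPKM in Chd7 deletion 1, 3 and 4, against 292, 288, 376 and 428 FPKM in wild type 1 to 4. The deletion libraries 3 and 4 lay above wild type 1 and 2 and below wild type 3 and 4. The fitted log2 fold change was -0.28 (95% interval -0.74 to 0.18), and Mest passed in neither fit (limma adjusted p = 0.925, or 0.138 under the block). Omitting Chd7 deletion 1 gave -0.095 and omitting wild type 4 gave -0.17. Its end overlaps Copg2 on the other strand, and the use of strand in counting is not given in the sources used here.

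Cdkn1c and Grb10 are known to restrain growth of the mouse embryo. Cdkn1c encodes an inhibitor of cyclin-dependent kinases that stops the cell cycle. Cdkn1c (chr7:143458339-143461050) had 93.3, 102 and 95.8 FPKM in Chd7 deletion 1, 3 and 4, against 77.8, 71.3, 71.5 and 73.3 FPKM in wild type 1 to 4. Every deletion library was above every wild-type library. The mean after deletion was 1.32-fold the wild-type mean, with a log2 fold change of 0.40 and a standard error of 0.081. The adjusted p in limma was 0.0899, in a range of 0.00784 to 0.351 over 17 alternative settings, and 0.0559 under the replicate block. Kcnq1ot1, the paternally read antisense RNA of its cluster, was 2.24 ± 0.231 FPKM (SD, n = 3) after deletion and 1.94 ± 0.0851 FPKM (SD, n = 4) in wild-type libraries and did not pass (adjusted p = 0.838, or 0.275 under the block).

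Grb10 encodes an adaptor that binds insulin and insulin-like growth factor receptors and dampens their signalling. Grb10 (chr11:11930508-12038683) had 246, 261 and 251 FPKM in Chd7 deletion 1, 3 and 4, against 233, 229, 248 and 262 FPKM in wild type 1 to 4. The ranges overlapped almost fully. The log2 fold change was 0.06 with a 95% interval of -0.18 to 0.29 (limma adjusted p = 0.962, or 0.860 under the block).

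Nnat encodes a small membrane protein of the endoplasmic reticulum and lies within an intron of Blcap on the other strand. Nnat (chr2:157560078-157562522) had 113, 139.8 and 113 FPKM in Chd7 deletion 1, 3 and 4, against 149.7, 135, 128 and 127 FPKM in wild type 1 to 4. Chd7 deletion 3 lay among the wild-type values and the other deletion libraries below them. On the log2 scale the difference was -0.15 (95% interval -0.41 to 0.11, limma adjusted p = 0.933, or 0.434 under the block), and it ranged from -0.25 without Chd7 deletion 3 to -0.099 without Chd7 deletion 1.

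H19 is a long non-coding RNA that is read from the maternal copy beside Igf2. H19 (chr7:142575529-142578143) had 208, 325 and 331 FPKM in Chd7 deletion 1, 3 and 4, against 297, 290.3, 414 and 458 FPKM in wild type 1 to 4. Deletion libraries 3 and 4 lay between the 2 wild-type sets. The log2 fold change was -0.34 (95% interval -0.87 to 0.18), and H19 passed in neither fit (limma adjusted p = 0.921, or 0.0947 under the block). It was -0.13 without Chd7 deletion 1 and -0.23 without wild type 4. Igf2, the paternally read growth factor gene of the cluster, had 89.8, 124 and 137 FPKM in Chd7 deletion 1, 3 and 4, against 129, 127, 167 and 188 FPKM in wild type 1 to 4. Its log2 fold change was -0.38 (limma adjusted p = 0.767), and under the block Igf2 fell (-0.46, adjusted p = 0.0337).

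The level of several of these genes followed the library number as well as the genotype. In the wild type, the mean of libraries 3 and 4 over that of libraries 1 and 2 was 1.48 for H19, 1.39 for Mest, 1.32 for Peg3, 1.28 for Peg10 and 1.17 for Dlk1, where the median over all tested genes was 1.10 and 80% of them lay between 0.871 and 1.31. The same ratio was 0.971 for Cdkn1c, 0.894 for Meg3 and 0.897 for Nnat. In the deletion, libraries 3 and 4 over library 1 gave 1.58 for H19, 1.48 for Mest and 1.47 for Plagl1, and 1.06 for Cdkn1c. Chd7 deletion 1 was the lowest of the 7 libraries for 7 of the 10 genes and wild type 4 the highest for 7. The share of all genes with these extremes was not counted, so this is not shown to be particular to the 10. The same libraries had the lowest and the highest sum of FPKM, 170809 and 209560. Within replicates 3 and 4 the genotype difference was -0.41 for H19, -0.33 for Mest, -0.43 for Peg3, -0.48 for Peg10, -0.36 for Plagl1 and 0.44 for Cdkn1c, and within replicates 1 and 2 it was -0.50, -0.42, -0.37, -0.41, -0.76 and 0.32 for the same genes in that order. With the library set as a covariate, a split that was known from these data, 7 of the 10 passed (H19, Dlk1, Peg3, Mest, Plagl1 and Peg10 lower, Cdkn1c higher), where 6.52% of all genes did.

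Ratios of genes of a shared cluster within a library are free of differences in library scaling. They were formed for 8 pairs of genes chosen after the values were seen, with exact two-sided permutation tests over all 35 ways to place 3 of 7 libraries in a group, for which the smallest possible p is 0.0286. H19 over Igf2 was 2.31, 2.61 and 2.42 in Chd7 deletion 1, 3 and 4, against 2.30, 2.29, 2.48 and 2.44 in wild type 1 to 4. The ratio lay between 2.29 and 2.61 in libraries whose H19 level lay between 208 and 458 FPKM, and the groups overlapped (exact p = 0.571). Peg3 over Usp29 was 37.3 ± 2.00 (SD, n = 3) after deletion and 38.1 ± 1.11 (SD, n = 4) in the wild type (exact p = 0.457). Dlk1 over Meg3 was 0.923, 1.26 and 1.40 in Chd7 deletion 1, 3 and 4, against 1.45, 1.64, 1.65 and 2.47 in wild type 1 to 4. The groups did not overlap, with Chd7 deletion 4 and wild type 1 close together (exact p = 0.0571). Peg10 over Sgce, its divergent neighbour 99 bases away, was 10.3, 10.2 and 13.3 in Chd7 deletion 1, 3 and 4, against 14.4, 14.8, 13.7 and 16.8 in wild type 1 to 4. These groups were also apart (exact p = 0.0286). The Benjamini-Hochberg adjusted exact p over the 8 pairs was 0.229 for both. A single pair at the smallest possible p cannot reach 0.05 after adjustment over 8 pairs, so little can be read from these adjusted values. The permutations also treat the 7 libraries as exchangeable and take no account of the library sets. The other 4 pairs, Mest over Copg2, Plagl1 over Hymai, Nnat over Blcap and Rian over Meg3, overlapped between the genotypes, with an exact p of 0.114 or more.

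**Figure D3:**
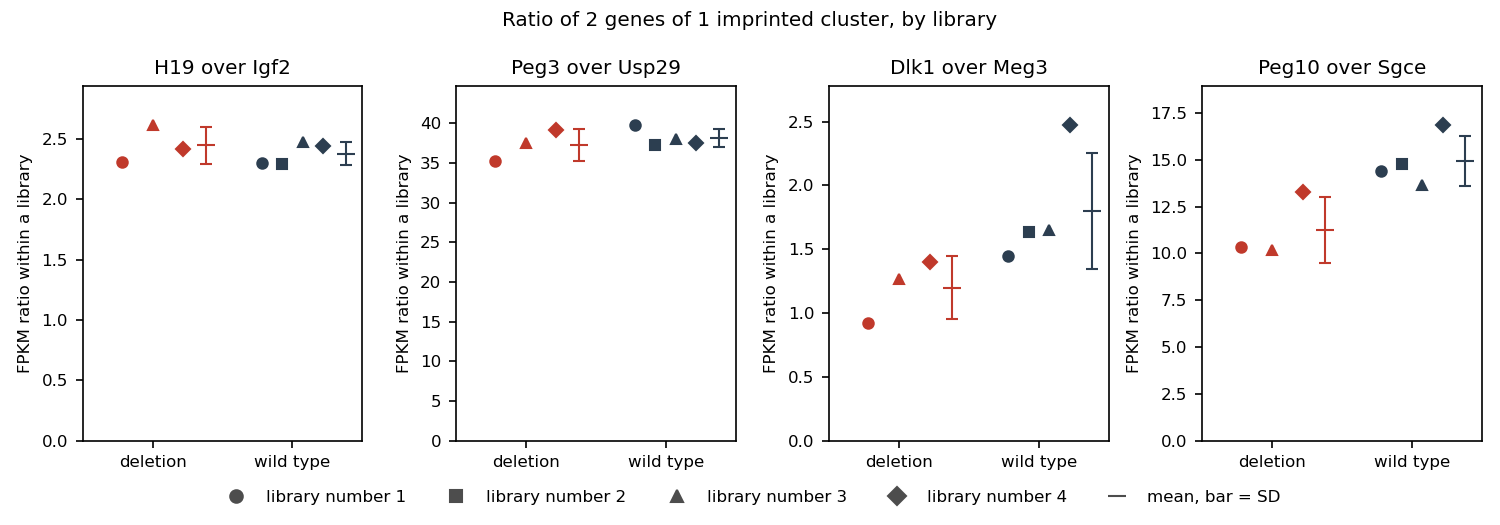
FPKM ratio of the 2 genes named above each panel within each library (vertical axes, from 0), with the Chd7 deletion left of the wild type, marker shape for library number and bars for mean and SD. H19 over Igf2 and Peg3 over Usp29 overlap between genotypes, whereas Dlk1 over Meg3 and Peg10 over Sgce are lower in all 3 deletion libraries than in any wild-type library.

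Of 42 other imprinted genes in the table, 27 were tested. A single gene of these passed without the block and 5 passed under it, all lower after deletion, beside 0.888% of all genes called without the block and 2.27% called lower under it. The median log2 fold change of the 27 was -0.07 without the block and -0.08 under it, beside -0.04 and -0.07 over all genes. Magel2, a paternally read gene of the MAGE family from the region that is deleted in human Prader-Willi syndrome, had 2.90, 2.84 and 3.28 FPKM in Chd7 deletion 1, 3 and 4, against 5.69, 4.93, 5.60 and 6.12 FPKM in wild type 1 to 4. The groups were well apart, and Magel2 fell in limma (log2 fold change -0.71, adjusted p = 0.0111) and under the block (-0.76, adjusted p = 0.00349). The call was lost without Chd7 deletion 3 (adjusted p = 0.0669), without Chd7 deletion 4 (adjusted p = 0.0607) or without wild type 3 (adjusted p = 0.0604), where the counts over all genes were also low. The other 4 called under the block were Asb4, Dcn, Ndn and Slc38a4, of which Ndn and Slc38a4 are named because of that call. Asb4, a ubiquitin ligase component read from the maternal copy of the Peg10 cluster, had 4.31, 6.64 and 6.80 FPKM in Chd7 deletion 1, 3 and 4, against 9.32, 9.49, 13.6 and 14.6 FPKM in wild type 1 to 4. Its log2 fold change was -0.88 (limma adjusted p = 0.113) and under the block -0.97 (adjusted p = 0.00209). Ndn, the neighbour of Magel2, was 45.7 ± 5.26 FPKM (SD, n = 3) after deletion and 60.2 ± 4.24 FPKM (SD, n = 4) in the wild type (adjusted p = 0.201, or 0.0317 under the block). Slc38a4, an amino acid transporter gene, was 21.1 ± 3.36 FPKM after deletion and 27.8 ± 5.12 FPKM in the wild type (adjusted p = 0.616, or 0.0152 under the block). The matrix proteoglycan gene Dcn, imprinted in the placenta, was 2.06 ± 1.20 FPKM after deletion and 4.13 ± 1.17 FPKM in the wild type (adjusted p = 0.394, or 0.0261 under the block). Ppp1r9a, which encodes an actin-binding protein and lies in the Peg10 cluster, was 5.37 ± 0.119 FPKM after deletion and 4.59 ± 0.326 FPKM in the wild type (adjusted p = 0.538). Igf2r, the maternally read gene of the receptor that clears IGF2, was 34.4 ± 3.66 FPKM after deletion and 36.9 ± 3.28 FPKM in the wild type (adjusted p = 0.951). Of the other imprinted neighbours of the 10 genes, Mirg, Zim1, Tssc4 and Osbpl5 did not pass in either fit, and the sign of the difference depended on the setting for Mirg, Zim1 and Osbpl5.

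**Figure D4:**
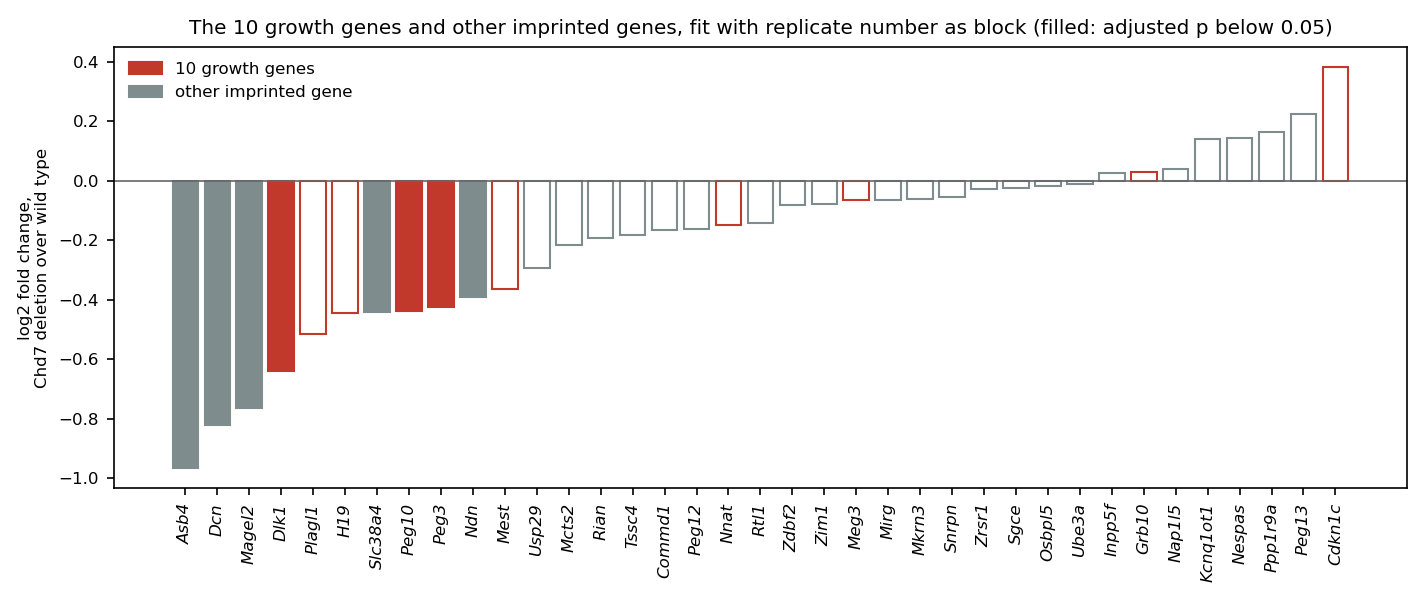
Log2 fold change, Chd7 deletion over wild type, on log2(FPKM + 1) with the replicate number as a block (vertical axis) for the 10 genes described here (red) and the 27 other tested imprinted genes (grey), in order of size. Filled bars have an adjusted p below 0.05 over all genes, and all 8 of them are below 0, from -0.97 for Asb4 to -0.39 for Ndn.

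The other imprinted genes were also grouped by the parental copy assigned to each. The difference was negative for 12 of 17 tested genes assigned to the paternal copy (median -0.07), and for 7 of 10 assigned to the maternal copy (median -0.07). Over all genes tested it was negative for 7225 of 11039. The copy read in these cells was not measured, and Dcn is assigned by its imprinting in the placenta. The list of factors that maintain imprints holds DNA methyltransferases, the TRIM28 corepressor and CTCF. None of its 14 tested genes passed in limma, none had an unadjusted p below 0.05 and none passed under the block. The shares over all genes were 0.888%, 7.38% and 3.32% in that order, so counts of 0 among 14 genes set the list little apart. The groups did not overlap for 1 of the 14, Trim28, and for 9.17% of all genes. The 3 largest differences there were in Uhrf1, Ezh2 and Trim28. Uhrf1, which guides methylation to newly copied DNA, was 53.8 ± 4.20 FPKM (SD, n = 3) after deletion and 60.0 ± 7.57 FPKM (SD, n = 4) in the wild type. In the same order of groups, the histone methyltransferase gene Ezh2 was at 34.3 ± 5.26 and 38.1 ± 5.33 FPKM. Trim28 was at 162 ± 2.77 and 179 ± 7.61 FPKM. Of the non-imprinted relatives, Cdkn1b, a second inhibitor gene of the Cdkn1c family, had a log2 fold change of 0.12 (95% interval -0.10 to 0.33, limma adjusted p = 0.933), and Plag1 and Plagl2 did not pass either (adjusted p = 0.983 and 0.948).

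Among 14 cyclins, kinases and receptors that act with these genes, none passed in limma, 2 had an unadjusted p below 0.05, both higher after deletion, and 1 rose under the block, beside shares over all genes of 7.38% at that unadjusted p and 3.32% called under the block. Counts this small among 14 genes set the list little apart from those shares. That gene was Notch1, a receptor of the pathway to which DLK1 is related, at 28.8 ± 3.25 FPKM (SD, n = 3) after deletion and 22.1 ± 4.67 FPKM (SD, n = 4) in the wild type (adjusted p = 0.613, or 0.018 under the block). Ccnd2, a cyclin of the first gap phase, was 100.03 ± 4.71 FPKM after deletion and 84.2 ± 5.09 FPKM in the wild type (adjusted p = 0.466, or 0.138 under the block), and Cdk4 was 187 ± 29.4 FPKM after deletion and 218 ± 17.5 FPKM in the wild type (adjusted p = 0.874, or 0.221 under the block).

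The sorted cells carried the markers of neural crest, whose 11 genes summed to 153 to 199 FPKM after deletion and 168 to 227 FPKM in the wild type. Within this list the genes that passed, named here because they did, went in opposite directions. Sox10 and Foxd3, which are also on the glial list, rose in limma (adjusted p = 0.0193 and 0.0142) and under the block. Hand2, a transcription factor of arch mesenchyme and heart, fell to 43.3% of the wild-type mean (limma adjusted p = 0.0142, or 0.00229 under the block). Under the block the mesenchymal genes Twist1, Prrx1, Prrx2 and Pdgfra fell as well (adjusted p from 0.00575 to 0.00695), at 57.6%, 61.4%, 67.6% and 62.6% of the wild-type mean in that order, beside 62.6% for Dlk1, 78.5% for Peg3 and 75.6% for Peg10. The part of these falls in the levels of the imprinted genes was not tested. Glial precursor markers also moved with the genotype. The sum of their 7 genes was 113 to 125 FPKM after deletion and 71.8 to 83.9 FPKM in the wild type, and of 6 tested 3 rose in limma and 5 under the block. Their part in the levels of the imprinted genes was not tested either. No marker of the other cell types passed in limma. Summed endothelial markers were 4.00 to 7.17 FPKM after deletion and 5.04 to 7.004 FPKM in the wild type, with 7 of 10 below 1 FPKM in every library. Erythroid markers summed to 22.7 to 55.2 FPKM after deletion and 22.5 to 37.99 FPKM in the wild type. Arch mesoderm markers summed to 14.0 to 18.3 FPKM after deletion and 15.2 to 18.7 FPKM in the wild type, and neuronal markers to 204 to 345 FPKM after deletion and 192 to 367 FPKM in the wild type. Leukocyte, epithelial and cardiomyocyte markers summed to at most 15.5 FPKM in any library, with overlapping ranges. No marker was at 0 in all libraries. Sox17, Gata1, Ptprc, Krt5 and Myf5, named here because they were that low, were below 0.1 FPKM in every library. Other markers of the same lists were higher, with single values of up to 2.76 FPKM for Egfl7, 26.4 for Hbb-y, 3.58 for Coro1a, 5.47 for Foxa2 and 14.0 for Isl1. A small share of these cell types is therefore not excluded.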

How the data were processed

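Sorted GFP-positive cells gave 7 libraries of total RNA, made with a strand-specific kit after ribosomal RNA depletion, from RNA with an integrity number of 9.5 or more, per the labels' protocols. The authors deposited FPKM values, 1 column per library. Partek, SAMtools, HISAT2, Trimmomatic 0.38, bcl2fastq 2.18.0.12 and the build mm10 are listed in the submitters' processing notes, without roles. The sources used here do not give the annotation, the read counts or how strand was used in counting. FPKM depends on the library total, so abundant RNA in a library lowers all other values. Of 19169 rows, 25 with a date for a symbol were left out.

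All 11039 genes whose mean reached 1 FPKM entered 1 limma fit (version 3.58.1, R 4.3.3) of log2(FPKM + 1), 2-sided, without a block and with a variance trend on the mean. The p-values were adjusted by Benjamini-Hochberg over all of them, with a threshold of 0.05. Log2 fold changes are deletion minus wild type on log2(FPKM + 1), which understates changes of low genes. Deviations from the group mean correlated at 0.704, 0.399 and 0.775 between libraries numbered 1, 3 and 4, so the numbers were taken to pair libraries. Differently numbered libraries of the same set also correlated. The values were 0.592 for Chd7 deletion 1 with wild type 2, 0.377 for Chd7 deletion 4 with wild type 3 and 0.250 for Chd7 deletion 3 with wild type 4. The correlations thus show the library sets more clearly than a pairing by number. The pairing comes from the data, and wild type 2 adds nothing to the difference under the block. Positions are GENCODE M21 (GRCm38, named mm10 by the submitters) and may differ from the authors' gene models. The 95% intervals come from limma.

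The fit was tested on simulated data, in which it recovered 50% of changes of 1.5-fold and 88% of changes of 2-fold, with 4.05% of calls false. Changes as small as most of those of the 10 genes can therefore be missed. The simulated noise was drawn separately for each library and left out the library sets. Alternatives changed the pseudocount, filter, scaling, block, library set, variance trend, library weights or the libraries used. The 10 genes and the lists were chosen with earlier results of these data known. Named from the lists are genes past the threshold, imprinted neighbours of the 10, and otherwise the 3 largest changes of a list. Nespas, first listed as maternal, was counted as paternal. Python 3.11.15 with pandas 2.3.3, matplotlib 3.10.9 and numpy 2.4.6 was used for the rest.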

Additional observations from a re-analysis of the deposited data

Results flagged for a closer look

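Meg3 in wild type 4 was 7.99 FPKM, while the other 3 wild-type libraries lay at 9.996, 10.03 and 10.2 FPKM, a gap that took a share of 0.921 of the range of the group. Of 44 genes and ratios examined in the wild-type group this was the only value so far from the rest. By chance about 1 in 20 items would be flagged, so 1 among 44 is no more than chance gives. Some of the ratios contain Meg3, so the items are not independent.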

How the results depend on the processing

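The count of genes past the threshold was 98 (45 higher, 53 lower) and depended on the setting. It was 62 (29 higher, 33 lower) without a filter, 32 (14 higher, 18 lower) at a mean of at least 5 FPKM, 156 (81 higher) with median ratio scaling, 366 (115 higher, 251 lower) with the replicate block, 720 (169 higher, 551 lower) with the library set as a covariate and 213 (110 higher, 103 lower) with library weights. Quantile normalization gave 145 of 11039 genes (74 higher, 71 lower). Replicates 3 and 4 alone gave 139 of 11042 (53 higher, 86 lower). Leaving out single libraries gave 4 to 78 genes, 1 to 42 higher and 3 to 36 lower, and the count was 4 when Chd7 deletion 4 or wild type 3 was omitted, 12 when it was Chd7 deletion 3, 35 on omission of wild type 2, 40 on that of wild type 1, and 53 if wild type 4 was dropped. Of the 10 imprinted genes, 0 passed without the block, 3 with it, 7 with the library set, 2 with median ratio scaling, with library weights or in replicates 3 and 4 alone (Dlk1 and Cdkn1c each time), 1 with quantile normalization (Dlk1), and 0 whichever library was left out. Of the other imprinted genes 1 passed, and 0 at a mean of at least 5 FPKM, 2 with either scaling or in replicates 3 and 4 alone, 3 with library weights, 5 with the replicate block or library set, and 0 to 1 without single libraries.

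No value of the 10 genes changed sign in 170 values over 17 settings. Of the 170 values 17 passed the threshold, all in settings whose counts over all genes are given above. Of 26 other genes followed through the settings, Chd7 included, 5 with small differences changed sign. Sgce did so with -0.024 under the replicate block, -0.019 with the library set, -0.083 in replicates 3 and 4 alone, -0.044 with library weights and -0.048 to 0.076 without single libraries. Plag1 had -0.019 in replicates 3 and 4 alone and -0.022 to 0.050 without single libraries. Zim1 had -0.078 under the replicate block, -0.061 with the library set, -0.091 in replicates 3 and 4 alone and -0.17 to 0.11 without single libraries. Osbpl5 had 0.014 with median ratio scaling, 0.038 in replicates 3 and 4 alone and 0.0072 with library weights. Mirg had 0.050 with library weights and -0.089 to 0.043 without single libraries. The cause was not tested. Depth limits low genes such as Hymai, whose reads are few and not given in the file.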
